A study of Gallus gallus with 12 samples.

Results

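Chromosome 15 of the chicken was examined for regions enriched in methylated DNA in the liver of birds from an ALV-J-resistant and an ALV-J-susceptible group, named for their response to the J subgroup of avian leukosis virus. All peaks on chromosome 15 in the 6 deposited peak lists were taken, and overlapping or touching peaks of different libraries were merged into regions. The lists held 8572 peaks on this chromosome of 356324 in all (2.41%), and these merged into 1997 regions of 90181 in the genome (2.21%). A region is called resistant-only below if each of the 3 resistant lists, and 0 of the 3 susceptible lists, had a peak in it, and susceptible-only if the reverse held. These 20 and 11 regions were selected on the presence of peaks in the 6 lists, and the chromosome itself was chosen with the same peaks known, so both patterns are descriptions. The other 1966 regions are described by how many libraries share them.

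The measurement was methylated DNA immunoprecipitation sequencing (MeDIP-seq), in which an antibody against methylated cytosine pulls down fragments of genomic DNA before sequencing. The ALV-J-resistant group had 3 immunoprecipitated libraries (samples 3, 4 and 26, called resistant replicates 1 to 3) and the ALV-J-susceptible group had 3 (samples 8, 9 and 14, called susceptible replicates 1 to 3). Each was called against an input library of the same sample number. All came from liver, and the labels give no breed, age, sex or infection status and do not say how resistance was determined. Whether each sample number is a separate bird is not stated, so p-values measure only the spread between these samples, which may be technical.

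In vertebrates cytosine is methylated mainly where it is followed by guanine, and methylated CpG sites are common in gene bodies and repeats and scarce in active CpG island promoters. MeDIP recovers fragments that carry several methylated CpGs, so a peak marks a stretch that is both CpG-rich enough and methylated, and a stretch without a peak may lack either. Chicken chromosomes differ widely in size, and the small microchromosomes are richer in genes and CpGs than the large ones. Chromosome 15 is one of these microchromosomes and carries the immunoglobulin light chain locus. ALV-J is a retrovirus of chickens whose provirus integrates into host DNA, and endogenous retroviral sequences in the chicken genome are commonly methylated.

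The peak lists carry no read numbers, so the depth of every library is unknown, and the lack of a peak says only that nothing passed the authors' threshold there. The full lists held 55599 to 64559 peaks, and 2.38% to 2.44% of each list lay on chromosome 15. Resistant replicate 3 and susceptible replicate 3 stood apart from the rest in peaks on the sex chromosomes. Their Z coverage was 65.3 and 68.1 kb per Mb and their W coverage 50.2 and 53.3 kb per Mb, against 29.9 to 31.8 kb per Mb on Z and 179 to 189 kb per Mb on W in the other 4 libraries. The chromosome comparisons, group differences, group-only counts and similarity of libraries are therefore also given without them. Window values, sharing along the chromosome, regions just outside the definition and covered lengths are given only with them. Positions are on galGal4, counted from 1, and no gene annotation or sequence of that build was used, so regions are given by position.

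Peaks on chromosome 15 were spread very unevenly, and all 6 libraries showed the same relief. In windows of 1 Mb the coverage, that is, the length under peaks, was highest from 7000001 to 8000000, where the resistant group averaged 180 ± 5.81 kb per Mb and the susceptible group 177 ± 10.9 kb per Mb (mean ± SD, n = 3 each, as for the other windows). The neighbouring window from 6000001 to 7000000 had 142 ± 4.91 kb per Mb in the resistant group and 143 ± 9.06 in the susceptible group. The window from 1000001 to 2000000 came next, with 127 ± 8.16 kb per Mb in the resistant group and 121 ± 7.09 in the susceptible group. These are the 3 windows with the highest mean over the 6 libraries.

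The sparsest window ran from 3000001 to 4000000. Resistant replicates 1 to 3 had 7.79, 8.15 and 5.21 kb per Mb there, and susceptible replicates 1 to 3 had 7.68, 8.39 and 6.58 kb per Mb. No library exceeded 8.39 kb per Mb in it. The window from 8000001 to 9000000 directly follows the densest one and was thinly covered too, with 22.8 ± 1.41 kb per Mb in the resistant group and 20.96 ± 3.82 in the susceptible group. The window from 2000001 to 3000000 had 38.8 ± 2.16 kb per Mb in the resistant group and 34.4 ± 3.50 in the susceptible group. Between pairs of libraries the 13 window values had a Pearson r of 0.995 to 0.999 over the 15 pairs, a description that mixes this common relief with the shared genome sequence.

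**Figure D1:**
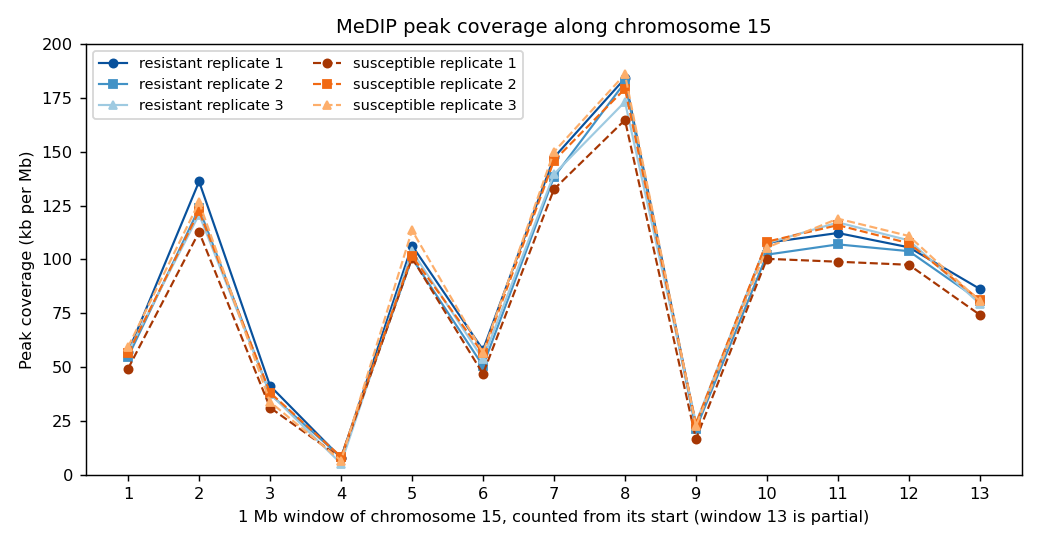
Peak coverage in kb per Mb (vertical axis) in each 1 Mb window of chromosome 15 (horizontal axis), with 1 line per library; resistant libraries are solid blue and susceptible libraries dashed orange. Windows 7 and 8 are the highest at 132.6 to 186.0 kb per Mb, window 4 stays at or below 8.39 kb per Mb, and lines of both groups interleave in every window.

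Chromosome 15 held 29 stretches longer than 50 kb without a peak in any library, which together made up 17.6% of its length. The longest, 175 kb from 2896758 to 3072054, was separated from the third longest, 149 kb from 3087958 to 3236669, by a short island with peaks, and both lie at the edge of or inside the sparsest window. Another of 151 kb ran from 11715787 to 11866701. Chromosomes 14 and 13, both larger, had 40 and 38 stretches over 50 kb, or 19.1% and 20.9% of their length, and their longest measured 169 and 298 kb. No sequence of the build was used, so whether such stretches hold gaps in the assembled sequence was not tested.

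Among the regions found in all 6 libraries, the strongest and the longest were singled out. The authors' score, read as the negative log10 of the peak caller's p-value multiplied by 10, was exactly 3100 for 82 of the 8572 peaks and above it for 8, so it orders the strongest peaks poorly. It was at or above 3100 in every library in 6 regions, of which the first 5 by position among equals were named by rule. They lie at 4852306 to 4855644 (3339 bp), 6992117 to 7000060 (7944 bp), 9875193 to 9879115 (3923 bp), 10851913 to 10857515 (5603 bp) and 10858048 to 10860905 (2858 bp). The last pair of these are neighbours. At 6992117 to 7000060 the covered length was 7505, 7651 and 7689 bp in resistant replicates 1 to 3 and 7593, 7791 and 7867 bp in susceptible replicates 1 to 3. The groups overlapped there, and all libraries covered nearly the whole region.

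The longest region, 8565 bp from 7046295 to 7054859, lay in the densest window. Its covered length was 7821, 7876 and 8288 bp in resistant replicates 1 to 3, and 7738, 8304 and 8122 bp in susceptible replicates 1 to 3. It was split into 2, 4 and 1 peaks in the resistant libraries and 3, 3 and 2 peaks in the susceptible ones, so peak number and covered length are not the same measure. The third longest, at 6523000 to 6529132, measured 6133 bp. Its highest score per library was 1164.51, 1351.5 and 820.16 in the resistant replicates and 1312.66, 1053.59 and 1369.68 in the susceptible replicates. Neither group was uniformly higher in it.

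Chromosome 15 was then set against chromosomes 14 and 13 within each library. Its coverage was 86.8 ± 4.00 kb per Mb, against 92.3 ± 2.88 kb per Mb on chromosome 14 and only 68.8 ± 2.80 on chromosome 13 (mean ± SD, n = 6 libraries). It was lower than on chromosome 14 in 6 of 6 libraries, by -5.45 ± 1.53 kb per Mb, and higher than on chromosome 13 in 6 of 6 libraries, by 18.0 ± 2.06 kb per Mb (mean ± SD of the within-library difference). For both, the exact two-sided sign-flip permutation test gave p = 0.03125, the smallest it can give with 6 libraries, and an adjusted p of 0.0417 over the 8 comparisons made (Benjamini-Hochberg). Coverage is the product of peak density and mean peak width, so the comparisons of these measures are not independent findings.

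Peaks on chromosome 15 were narrower than on chromosome 14, while the difference in their density did not pass the test. Those of chromosome 15 averaged 772 ± 54.0 bp, against 827 ± 66.2 bp on chromosome 14, and were narrower in 6 of 6 libraries by -55.2 ± 13.1 bp (exact permutation test, p = 0.03125, adjusted p = 0.0417). Peak density was 113 ± 8.16 per Mb on chromosome 15 and 112 ± 8.58 per Mb on chromosome 14, a difference of 0.762 ± 1.96 per Mb that was positive in 4 of 6 libraries (exact permutation test, p = 0.4375, adjusted p = 0.5). The median score percentile of the peaks, each taken within its own library's list, was 53.1 ± 0.877 on chromosome 15 and 53.4 ± 1.26 on chromosome 14 (exact permutation test, p = 0.625, adjusted p = 0.625). Against chromosome 13, peaks on chromosome 15 were denser by 19.6 ± 1.66 per Mb, wider by 31.1 ± 7.25 bp and higher by 3.10 ± 1.31 points of score percentile, each in 6 of 6 libraries (exact permutation tests, p = 0.03125, adjusted p = 0.0417). Without resistant replicate 3 and susceptible replicate 3 these differences kept their sign, except the small one in peak density against chromosome 14, but with 4 libraries the test cannot go below 0.125.

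**Figure D2:**
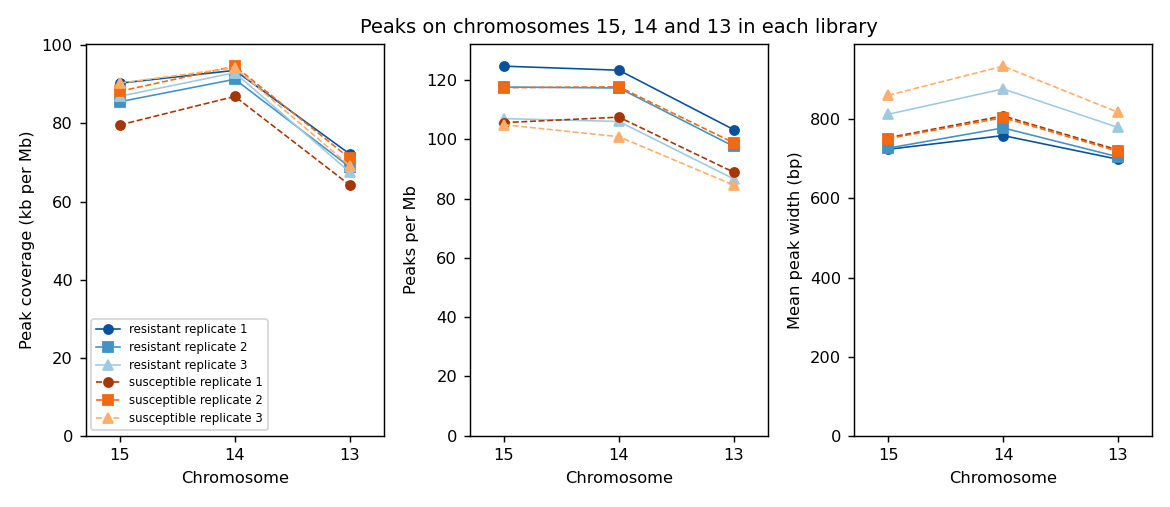
Peak coverage (kb per Mb), peaks per Mb and mean peak width (bp) on chromosomes 15, 14 and 13 in each of the 6 libraries, with 1 line per library; resistant libraries are solid blue and susceptible libraries dashed orange. Coverage and width are lower on chromosome 15 than on chromosome 14 in every library, and all 3 measures are higher than on chromosome 13.

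Of the 1997 regions on chromosome 15, 785 (39.3%) had a peak in every library, where 33.5% of all regions of the genome did. These regions spanned 1014.6 kb, or 60.1% of the 1687 kb under a peak in any library. A peak in a single library was found in 465 regions (23.3%, against 25.3% in the genome), which spanned 11.7% of that length. The remaining classes were smaller, with 231, 158, 162 and 196 regions in exactly 2, 3, 4 and 5 libraries. On chromosome 14 the share found in all 6 libraries was 39.1% of 2343 regions and on chromosome 13 it was 34.8% of 2454. No test was made of these shares, since regions of 1 library are not independent samples.

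Regions shared by more libraries were longer and scored higher. Median region length was 409 bp for regions of a single library, 566 bp for those of 3 and 1061 bp for those of all 6. The median score percentile was 14.5, 23.5 and 71.9 for the same 3 classes. Merging lengthens regions that many libraries share, and a peak far above the threshold is more easily called in each library, so both gradients are partly built into the classes. On chromosomes 14 and 13 the medians for regions of all 6 libraries were 1079 and 937 bp.

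**Figure D3:**
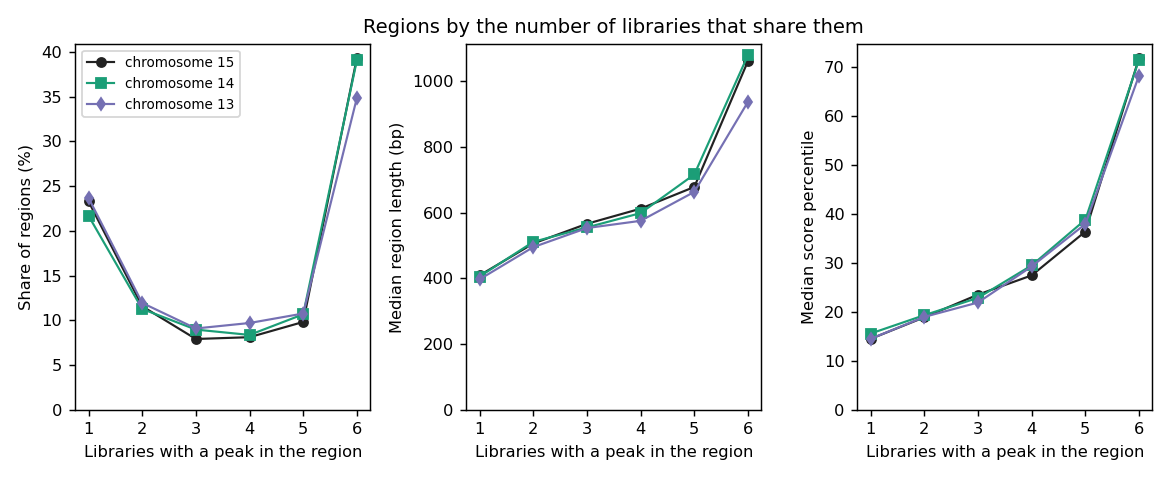
Share of regions (%), median region length (bp) and median score percentile (vertical axes) by the number of libraries with a peak in the region (horizontal axis), for chromosomes 15, 14 and 13. Regions found in all 6 libraries are the largest class on each chromosome (39.3%, 39.1% and 34.8%) and those found in exactly 3 or 4 are the smallest.

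The libraries contributed unequally to the unshared regions. Regions of that library alone numbered 134, 81 and 49 in resistant replicates 1 to 3, and 52, 103 and 46 in susceptible replicates 1 to 3. Resistant replicate 1 and susceptible replicate 2, which had the longest lists, thus had the most, in different groups. The median score of these solitary peaks was 95.6 to 104 in the 6 libraries, close to the authors' minimum of 80, while peaks in regions of all 6 libraries had medians of 309 to 362. Between 59.8% (resistant replicate 1) and 68.3% (susceptible replicate 1) of a library's peaks on chromosome 15 fell in regions of all 6.

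Sharing also varied along the chromosome. In the window from 6000001 to 7000000, 108 of 217 regions (49.8%) were found in every library, and in the densest window 122 of 293 (41.6%). In the sparsest window only 5 of 32 regions (15.6%) were, and 12 (37.5%) belonged to a single library. In the window from 8000001 to 9000000, 25 of 65 regions (38.5%) belonged to a single library as well, but 20 (30.8%) were found in every library.

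The resistant and susceptible groups were compared next, as a description without a test, because the chromosome had been selected with its group-related regions known. Resistant replicates 1 to 3 had 90.3, 85.6 and 87.0 kb of chromosome 15 under peaks per Mb, and susceptible replicates 1 to 3 had 79.6, 88.2 and 90.3 kb. The groups overlapped almost entirely, and the lowest value was that of susceptible replicate 1. The means were 87.6 ± 2.43 and 86.1 ± 5.67 kb per Mb (resistant and susceptible, SD, n = 3 each), a difference of 1.55 kb per Mb that is smaller than either SD. Without susceptible replicate 1 it was -1.67 kb per Mb, and with lists shortened to equal length -0.716 kb per Mb.

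Resistant libraries had 1578, 1489 and 1354 peaks on the chromosome and susceptible libraries 1337, 1486 and 1328. Mean peak width was 724, 727 and 813 bp in resistant replicates 1 to 3, and 754, 752 and 861 bp in susceptible replicates 1 to 3. In each group replicate 3, the library with high Z coverage, had the widest peaks. Both measures overlapped between groups, with differences of 7.11 peaks per Mb and -33.9 bp. Without resistant replicate 3 and susceptible replicate 3 they were 9.64 peaks per Mb and -26.8 bp, and the coverage difference was 4.01 kb per Mb. Without susceptible replicate 3 alone the difference in width was 2.21 bp, and without resistant replicate 1 that in peak density was 2.99 per Mb and that in coverage 0.206 kb per Mb.

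No 1 Mb window separated the groups by coverage. In 0 of the 13 windows did every resistant library lie above every susceptible one, and in 0 was the order reversed, where 2.16% and 1.47% of the windows of the genome showed these patterns. In windows of 500 kb, 1 of 26 had every resistant above every susceptible library (3.32% in the genome) and 0 the reverse (1.48%). In it, from 2500001 to 3000000, resistant replicates 1 to 3 had 45.4, 41.1 and 42.7 kb per Mb and susceptible replicates 1 to 3 had 31.8, 40.8 and 35.5 kb per Mb, so resistant replicate 2 and susceptible replicate 2 nearly met. Across the windows of 1 Mb, the mean was higher in resistant libraries in 10 of 13, and susceptible replicate 1 was the lowest of the 6 libraries in 11 of them. The widest differences between group means were 6.33 kb per Mb, higher in resistant libraries, from 1000001 to 2000000, and -1.65 kb per Mb from 4000001 to 5000000. In the first of these, resistant replicates had 136, 124 and 121 kb per Mb and susceptible replicates 113, 122 and 127 kb per Mb, so that resistant replicate 1 and susceptible replicate 1 formed the extremes and the rest interleaved.

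Regions that separated the groups completely were few. There were 20 resistant-only regions, 1.002% of the regions on chromosome 15, against 0.577% in the genome, and 11 susceptible-only regions, 0.551% against 0.320%. The rule for choosing the members used these counts, so nothing is read from them. On chromosome 14 the counts were 18 and 7 of 2343 regions (0.768% and 0.299%). On chromosome 13 they were 11 and 9 of 2454 regions (0.448% and 0.367%). Among the 158 regions of chromosome 15 with a peak in exactly 3 libraries, 31 (19.6%) followed the groups, against 9.46% in the genome, 11.9% on chromosome 14 and 8.97% on chromosome 13. This was the highest share of the 26 chromosomes with at least 50 such regions. Chromosomes 23 (17.7%), 18 (15.8%) and 28 (13.8%) came next, so a high share is not particular to chromosome 15. These shares restate the choice of the chromosome and are given as values only.

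The share was also taken under other settings. These reuse the peaks with which the chromosome was chosen, so a high share under them restates that choice and adds no support. Among stronger peaks the share rests on few regions. They include 0 of the 12 resistant-only and 0 of the 11 susceptible-only regions named by rule. That outcome was fixed by the scores, since each named region had a peak below the pooled median score of 193.59. When only peaks above the pooled median score of 193.59 were kept, 6 of 69 regions with exactly 3 libraries followed the groups (4 resistant-only and 2 susceptible-only), or 8.70%, against 8.84% in the genome and 10.7% on chromosome 14. When each library was left out in turn, the share was taken over regions with a peak in exactly 2 or 3 of the rest. It is therefore not comparable with the main share. This share was lowest without susceptible replicate 3, with 437 such regions. It was 12.4% there, against 12.1% on chromosome 14 and 9.72% in the genome. The highest share, without resistant replicate 3, was 16.1%, against 11.5% on chromosome 14 and 10.8% in the genome. With peaks covering at least 50% of a region the share was 18.1%, against 9.29% in the genome. With peaks up to 500 bp apart joined it was 17.2%, against 9.56%. In fixed windows of 1000 bp it was 17.3%, against 8.92%. With lists of equal length the counts were 13 resistant-only and 11 susceptible-only and the share 15.9%, against 9.45% in the genome. In the genome the counts were then 352 resistant-only and 397 susceptible-only, against 520 and 289 in the full lists. On chromosome 14 they were 12 and 9, and on chromosome 13 they were 6 and 18. The larger number of resistant-only regions in the genome thus did not hold at equal list length. In the 4 libraries without high Z coverage, where a region needs a peak in only 2 libraries of a group, 73 regions were resistant-only and 33 susceptible-only, and the share among regions of exactly 2 libraries was 38.3% on chromosome 15, 38.4% on chromosome 14 and 34.0% in the genome.

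**Figure D4:**
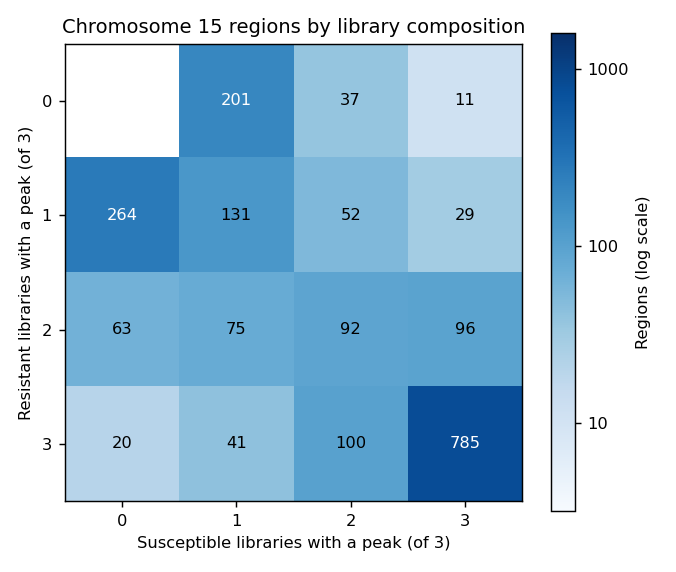
Number of chromosome 15 regions by how many of the 3 resistant libraries (vertical axis) and of the 3 susceptible libraries (horizontal axis) had a peak in them; the shade gives the number on a log scale. The corner of all 6 libraries holds 785 regions, while the corners that separate the groups hold 20 (resistant-only) and 11 (susceptible-only).

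Resistant-only regions were short beside those found in all 6 libraries, and of modest score. Their length had a median of 612.5 bp and ran from 379 to 795 bp, and 232 to 607 bp of each lay under the peaks of all 3 libraries. For each region the lowest of its 3 score percentiles was taken as a measure of strength. Its median was 15.02, it was under 10 in 8 of 20 regions and reached 50 in 0 of them. The 127 other regions with exactly 3 libraries had a median of 10.4, with 63 under 10 and 0 at 50 or above. Their median length was 550 bp, so resistant-only regions were not short within this class. All 20 regions lay between 1631104 and 11371238, and a susceptible peak lay within 1000 bp of 11 of them.

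The highest-ranked resistant-only region was 7202698 to 7203368 (671 bp). Its scores were 148, 164.27 and 202.74 in resistant replicates 1 to 3, or percentiles of 38.8, 41.9 and 50.9. It lies close to other methylated DNA, since a peak of susceptible replicate 2, part of a region found in all 6 libraries, lies 57 bp away. The next, 11370860 to 11371238 (379 bp), had scores of 258.76, 152.21 and 187.96. It was more isolated, with the nearest susceptible peak 2790 bp and the nearest region of all 6 libraries 21655 bp away. The third, 7147251 to 7147831 (581 bp), had scores of 122.8, 130.91 and 271.01 and the nearest susceptible peak 4093 bp away.

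Ranks 4 to 8 were 6107451 to 6108140, 6665098 to 6665770, 1857575 to 1858137, 2748476 to 2749088 and 4545857 to 4546598. The last of these had the highest single score of any resistant-only region, 329.48 in resistant replicate 2, with 272.54 in replicate 1 and 106.29 in replicate 3, but a susceptible peak lay only 4 bp beyond its edge. Ranks 9 to 12 were 4433958 to 4434534, 7893679 to 7894262, 7134884 to 7135301 and 7076630 to 7077424. The region of rank 12 lay 1 bp from a region of all 6 libraries and 115 bp from a susceptible peak. Over these 12 named regions scores ran from 94.73 to 329.48. The 8 others had lowest percentiles of 0.0279 to 8.53, and 2 of them were the most isolated. The region at 8357840 to 8358492, with scores of 161.93, 323.91 and 85.22, had no susceptible peak within 36190 bp, and the region at 6208867 to 6209310 none within 18315 bp. These 2 were singled out after their distances were seen.

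Of the resistant-only regions, 5 of 20 lay in the densest window, which held 293 (14.7%) of all 1997 regions. That window also holds the 500 kb window with the highest mean coverage on the chromosome, 244 kb per Mb. A further 4 lay from 4000001 to 5000000, a window with 168 (8.41%) of all regions. The closest neighbours, 4425058 to 4425763 and 4433958 to 4434534, were 8194 bp apart. In the first of them scores were 157.26, 87.07 and 121.47 in resistant replicates 1 to 3, and in the other 103.77, 188.84 and 164.9. No resistant library was uniformly the strongest, as the highest percentile fell in replicate 1 in 8 regions, in replicate 2 in 4 and in replicate 3 in 8.

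Susceptible-only regions resembled these in size. Their median length was 604 bp, from 513 to 966 bp, with a common core of 329 to 569 bp. A resistant peak lay within 1000 bp of 3 of the 11. The median distance to the nearest peak of the other group was 1555 bp, against 802.5 bp for resistant-only regions. The lowest percentile had a median of 5.68, was under 10 in 7 of 11 regions and reached 50 in 0. The first of them, 7017231 to 7017956 (726 bp), had scores of 254.18, 162.51 and 183.59 in susceptible replicates 1 to 3, or percentiles of 59.3, 43.0 and 47.8. It lies between the longest regions of the chromosome described above, the one ending at 7000060 and the one beginning at 7046295, with 1555 bp to the nearest resistant peak. It was also the strongest by lowest percentile among all 31 group-related regions.

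The second susceptible-only region, 9269306 to 9270023 (718 bp), had scores of 150.82, 130.49 and 125.38 and was the most isolated of them, with no resistant peak within 6509 bp. The third, 7915047 to 7915599 (553 bp), had scores of 117.22, 154.02 and 250, and lay 42 bp from a peak of resistant replicate 1. Ranks 4 to 7 were 7406560 to 7407088, 10905263 to 10906228, 6460448 to 6461245 and 7531580 to 7532092. Ranks 8 to 11 were 11043220 to 11043959, 4817505 to 4818108, 4649587 to 4650140 and 4646135 to 4646687. The last pair were 2899 bp apart, and their scores of 108.46, 81.81 and 82.39 and of 92.72, 89.2 and 81.13 lay near the authors' minimum. Of the 11 regions, 4 were in the densest window and 3 in the window from 4000001 to 5000000, which held 14.7% and 8.41% of all regions, and no test was made of these counts.

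**Figure D5:**
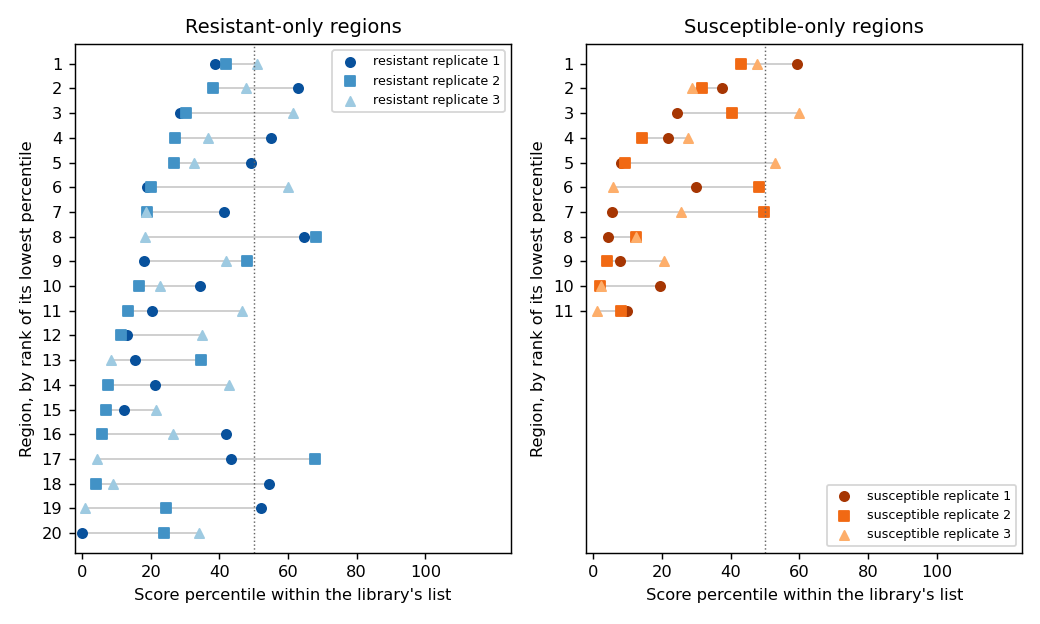
Score percentile of each peak within its own library's list (horizontal axis) for the 20 resistant-only (left) and 11 susceptible-only (right) regions, ordered by the lowest of their 3 percentiles (vertical axis); symbols mark the replicates and the dotted line the middle of the list. No region has all 3 peaks at or above the 50th percentile, and the lowest percentile is under 10 in 8 of 20 and 7 of 11 regions.

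Other regions stood just outside the definition. All 3 resistant libraries and a single susceptible one shared a peak in 41 regions (2.05%, against 1.91% in the genome), and the lone susceptible peak had scores of 82.3 to 377.04, with a median of 128.54. It came from susceptible replicate 2, the susceptible library with the longest list, in 20 of the 41. All 3 susceptible libraries and a single resistant one shared a peak in 29 regions (1.45%, against 1.41%), where the lone peak had scores of 80.83 to 378.48 and a median of 130.44. A further 63 regions (3.15%, against 2.95%) had a peak in 2 resistant and 0 susceptible libraries, and in 30 of these the missing library was resistant replicate 3. The reverse pattern occurred in 37 regions (1.85%, against 2.06%), with susceptible replicate 1 missing in 18. Just inside the definition, the weakest member at 1631104 to 1631627 had a score of 80.04 in resistant replicate 1.

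In the 785 regions with a peak in every library, the length covered by peaks was compared as well. Its median was 814, 823 and 860 bp in resistant replicates 1 to 3, and 785, 853 and 891 bp in susceptible replicates 1 to 3. In 24 regions (3.06%, against 3.25% in the genome) it was longer in every resistant than in every susceptible library, and in 58 (7.39%, against 5.43%) the reverse. On chromosome 14 these shares were 3.39% and 5.79%, and on chromosome 13 they were 3.39% and 6.78%. The resistant-longer share on chromosome 15 is thus near that of the genome, while its susceptible-longer share is the highest of those given. No test was made of the gaps between them.

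The similarity of libraries on chromosome 15 was measured as a Jaccard index, in which the length under peaks of both libraries is divided by the length under peaks of either. It averaged 0.659 ± 0.00246 among resistant pairs and 0.663 ± 0.00322 among susceptible pairs (n = 3 pairs each), and 0.652 ± 0.0120 over the 9 pairs that crossed the groups. One of these was the highest of all, resistant replicate 3 with susceptible replicate 3 at 0.680. Both are libraries of high Z coverage. In the 4 other libraries the resistant pair had 0.659, the susceptible pair 0.660 and the 4 pairs between groups 0.641 to 0.658. On chromosome 14 the means were 0.671, 0.669 and 0.670, and on chromosome 13 they were 0.634, 0.627 and 0.632, in the order resistant, susceptible and between groups. The index uses the same peaks with which chromosome 15 was chosen, so its values within and between groups there partly restate that choice. Pairs also share libraries and are not independent, so no test was made.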

How the data were processed

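MeDIP-seq peaks were measured in 6 liver libraries, each called against its own input. Reads were processed with cutadapt and Bowtie2 on galGal4, per the submitters' processing notes, and neither versions nor read filters are stated there. The authors deposited 1 peak list per library, made with MACS at p = 1e-08 per the list and peak names, without pooling. The deposited score of a peak, 80 or more, was interpreted as the negative log10 of p multiplied by 10, since 80 matches that threshold. It rises with depth, which is unknown, and was used only to describe, rank or filter peaks.

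The end of the last peak in the 6 lists served as chromosome length (12656392 on chromosome 15), a lower bound. Peaks were merged in Python 3.11.15 with pandas 2.3.3, and bedtools 2.31.1 gave the same 90181 regions. Chromosomes were compared within libraries by exact two-sided sign-flip permutation tests (SciPy 1.17.1) with Benjamini-Hochberg adjustment over 8 comparisons. Group differences were described without a test. The chromosome, its members and the lists and alternatives were chosen with earlier results of these data known.

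Named were, by rule, the 12 group-only regions per direction with the highest value of their lowest score percentile, the 5 strongest and 3 longest regions of all 6 libraries, and the 3 highest and 3 lowest windows of 1 Mb. Merging and the group-only classes were tried on simulated lists, in which only the planted group-only regions had peaks in exactly 3 libraries. Alternatives were leaving out each library, the 4 low-Z libraries, a score minimum at the pooled median, equal lists of 55599 peaks, peaks covering 50% of a region, merging across gaps of up to 500 bp, windows of fixed size (1000 bp) touched by a peak, and coverage windows of 500 kb.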

Additional observations from a re-analysis of the deposited data

How the results depend on the processing

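All alternatives were planned, but with earlier results of these data known. No paired analysis was possible because the replicate numbers only name libraries within a group, and the sample numbers are shared only between a library and its input.

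With the 4 low-Z libraries the differences between chromosome 15 and chromosome 14 were -5.69 kb per Mb, -0.107 peaks per Mb (turned in sign) and -48.4 bp. Against chromosome 13 they were 16.9 kb per Mb, 19.2 peaks per Mb, 27.7 bp and 3.06 points of score percentile. With 4 or 5 libraries the test cannot reach 0.05 by construction. Leaving out 1 library gave -5.89 to -5.08 kb per Mb, 0.105 to 1.28 peaks per Mb, -59.3 to -51.5 bp and -0.567 to 0.170 points against chromosome 14, positive in points without susceptible replicate 3. Against chromosome 13 it gave 17.4 to 18.5 kb per Mb, 19.2 to 20.2 peaks per Mb, 28.8 to 33.0 bp and 2.64 to 3.43 points. At the pooled median score the uncalled differences from chromosome 14 turned to -0.00908 peaks per Mb and 0.341 points, and with that minimum or equal lists the 6 called differences kept their sign and stayed at an adjusted p of 0.0417.

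Resistant minus susceptible, leaving out 1 library gave -1.67 to 3.68 kb per Mb (negative without susceptible replicate 1), 2.99 to 11.8 peaks per Mb and -62.9 to 2.21 bp (positive without susceptible replicate 3). Equal lists turned coverage to -0.716 kb per Mb.

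Resistant-only regions numbered 73 in the 4 low-Z libraries, 30 to 50 with 1 library left out, 4 at the pooled median score, 13 with equal lists and 12 with peaks joined. Susceptible-only regions numbered 33 in the 4 low-Z libraries, 19 to 29 with 1 library left out and 2 at the pooled median score. Fewer libraries loosen the definition by construction, and a higher minimum leaves fewer regions. The share of eligible regions that followed the groups was 38.3%, 12.4% to 16.1% and 8.70% under these 3 settings. Eligible regions had a peak in exactly 2 libraries in the first setting, in 2 or 3 in the second and in 3 in the third. In the genome it was 34.0%, 8.23% to 10.8% and 8.84%. With equal lists the share was 15.9%, against 9.45% in the genome, and with peaks joined 17.2%, against 9.56%. All of these shares reuse the peaks with which the chromosome was chosen. Regions found in every library made up 45.9% in the 4 low-Z libraries, 41.4% to 43.3% with 1 left out, 42.4% at the pooled median score, 33.7% with a cover of 50%, 42.2% with peaks joined and 43.5% in fixed windows. Of the 12 and 11 named resistant-only and susceptible-only regions, 0 and 0 were found again at the pooled median score, 11 and 7 with equal lists, 6 and 8 with peaks joined, 12 and 10 with a cover of 50%, and 10 and 9 in fixed windows. The 0 and 0 were fixed by the scores, since each named region had a peak below that median. In windows of 500 kb the highest mean was 244 kb per Mb and the lowest 7.07 kb per Mb. For the other changes the cause was not tested.

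Depth is unknown, which limits what a missing peak shows, and scores of 3100 do not rank the strongest peaks.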

Other observations

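At 500 kb the relief of chromosome 15 was sharper still. The window from 7000001 to 7500000 had 248 ± 10.7 kb per Mb in the resistant group and 240.2 ± 16.8 in the susceptible group (SD, n = 3 each). The window from 1500001 to 2000000 had 226 ± 12.6 and 213 ± 14.1 kb per Mb in resistant and susceptible libraries, next to 28.2 ± 4.12 and 27.9 ± 1.51 kb per Mb from 1000001 to 1500000. Towards the far end, 198 ± 7.25 and 201 ± 10.9 kb per Mb from 11000001 to 11500000 adjoined 14.1 ± 2.21 and 9.93 ± 3.25 kb per Mb from 11500001 to 12000000, which holds the stretch of 151 kb without a peak. These windows were singled out after their values were seen, and the steps were present in both groups.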
